A study of Mus musculus with 12 samples.

Results

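The genes described here are 10 regulators of the signal that runs from receptors to NF-kB through TRAF proteins and ubiquitin: Tnip1, Tnip2, Tnip3, Traf1, Traf2, Traf3, Peli1, Cyld, Tank and Bcl3. They were chosen by name, among 43453 genes in the deposited count table, and for each the transcript with the highest total count was used. The libraries were made from bone marrow-derived macrophages (BMDMs) of C57BL/6 mice, grown from marrow with 50 ng/mL M-CSF for 7 days, and came in 4 groups of 3. All mice carried homozygous floxed tlr4 alleles, the gene of the LPS receptor TLR4. The tlr4f/f mice carried no cre, and in the tlr4f/f-lysM-cre mice the lysozyme M promoter drove cre in myeloid cells, which include neutrophils as well as macrophages. BMDMs of each genotype were either untreated (LPS-) or given 1 µg/mL of LPS for 6 hours (LPS+). The age of the mice, and whether the 3 samples of a group came from separate mice, were not given in the sources used here, so p-values measure only the spread between these samples, which may be technical. The question the design addressed was how myeloid TLR4 alters the response of macrophages to LPS.

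When TLR4 or a cytokine receptor is engaged, adaptors and ubiquitin ligases build chains of ubiquitin that recruit the kinases upstream of NF-kB. TRAF proteins are the adaptors and ligases of this step, pellino proteins are ligases on the same route, and TNIP proteins, also called ABINs, bind ubiquitin chains and hold the signal back, in part with the ubiquitin-editing enzyme A20. CYLD cuts the chains, TANK binds TRAFs and the kinases TBK1 and IKKe, and BCL3 is a nuclear member of the IkB family that binds NF-kB dimers on DNA. Many of these genes are themselves known NF-kB targets in macrophages and form part of its negative feedback.

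The targeted gene did not follow the headings of the table, and the samples are therefore named by their headings. Levels are given as CPM, counts scaled to the library total with TMM factors. Tlr4 was at 77.0, 146 and 121 CPM under LPS- tlr4f/f and at 117, 94.7 and 116 CPM under LPS- tlr4f/f-lysM-cre. The gene was at 31.2, 28.0 and 24.5 CPM under the heading LPS+ tlr4f/f and at 27.4, 24.4 and 24.7 CPM under LPS+ tlr4f/f-lysM-cre. The row counts reads over the whole transcript, so reads outside the deleted part are in it. Lyz2, the lysozyme M gene that carries cre in lysM-cre mice, split the libraries the same way: between 5953 and 23331 CPM under both LPS- headings, between 10.4 and 14.4 CPM under LPS+ tlr4f/f and between 52.4 and 75.3 CPM under LPS+ tlr4f/f-lysM-cre. Il1b, a cytokine gene that LPS induces in macrophages, was at or below 6.95 CPM under both tlr4f/f headings and between 1633 and 8224 CPM under both tlr4f/f-lysM-cre headings. If LPS- tlr4f/f-lysM-cre was exchanged for LPS+ tlr4f/f, the low levels of Tlr4 and Lyz2 would both lie in the lysM-cre groups and the high level of Il1b in the LPS groups. Each comparison is therefore given under both readings. The exchange alters the name of a pairwise comparison and not its values, and the interaction of genotype and LPS has the same value under both.

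The libraries held 33577440 to 56445989 counts over 1 transcript per gene, and the members had between 278 (Traf1) and 41439 (Tnip1) counts in any library. The spread between samples was much wider under the LPS- headings, with a biological coefficient of variation of 48.4% for tlr4f/f and 42.8% for tlr4f/f-lysM-cre against 8.78% and 9.02% under LPS+. With the headings exchanged, both groups of wide spread would be tlr4f/f BMDMs and both of narrow spread tlr4f/f-lysM-cre BMDMs. The 8 macrophage markers summed to between 4603 and 13716 CPM in every library, and all were detected. The 7 fibroblast and stromal markers summed to 669, 61.7 and 9.48 CPM under LPS- tlr4f/f, to 982, 188 and 1510 CPM under LPS- tlr4f/f-lysM-cre, to between 20.9 and 25.5 CPM under LPS+ tlr4f/f and to between 45.4 and 57.6 CPM under LPS+ tlr4f/f-lysM-cre. The 8 neutrophil markers reached 192 CPM in replicate 3 of LPS- tlr4f/f-lysM-cre and were at or below 27.9 CPM in the other libraries, with Ly6g at or under 3 counts in all. The 7 dendritic cell markers summed to between 4.79 and 9.80 CPM under both tlr4f/f-lysM-cre headings and to at most 1.09 CPM under both tlr4f/f headings, with Flt3 and Siglech at or under 3 counts throughout, and the 8 lymphocyte markers summed to at most 1.40 CPM in any library. In bulk RNA a change in the share of a cell type and a change of RNA per cell cannot be told apart, and the part of these cells in the results was not tested.

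NF-kB dimers bind a short DNA element, the kappaB site, and the promoters of the members were searched for it on both strands, in windows from 250 bases before to 50 bases after each RefSeq start (GRCm38.p6). All 10 members had a window, and Tank had 4, of which any match counted. The kappaB consensus was matched in 6 of 10 members (Tnip1, Tnip3, Traf3, Cyld, Tank and Bcl3), against 4.51% of all 32851 windows of this length. A looser form of it, GGG and CC with any 5 bases between them, which includes every match of the consensus, was found in 8 of 10 members, all but Tnip2 and Traf1, and in 50.8% of all windows. Stretches of 120 bases clear of annotated exons are given for 4 members with a match to the consensus and for Traf1 and Peli1, which had none and were among the members that differed most between the groups. They run 5′ to 3′ along the gene, and capitals mark the consensus.
Tnip1 (chr11:54962941-54963060, minus strand): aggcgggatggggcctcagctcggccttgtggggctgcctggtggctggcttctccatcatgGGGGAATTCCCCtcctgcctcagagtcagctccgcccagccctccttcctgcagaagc
Tnip3 (chr6:65590278-65590397, plus strand): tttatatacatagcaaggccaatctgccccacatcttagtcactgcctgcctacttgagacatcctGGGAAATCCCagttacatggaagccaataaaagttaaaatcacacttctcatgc
Tank (chr2:61592957-61593076, plus strand): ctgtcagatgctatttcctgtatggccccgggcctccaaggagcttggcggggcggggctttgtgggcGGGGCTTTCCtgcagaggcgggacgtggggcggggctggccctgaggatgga
Traf3 (chr12:111166250-111166369, plus strand): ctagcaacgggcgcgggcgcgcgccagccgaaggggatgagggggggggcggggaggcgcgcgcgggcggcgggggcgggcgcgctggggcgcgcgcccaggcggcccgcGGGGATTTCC
Traf1 (chr2:34961773-34961892, minus strand): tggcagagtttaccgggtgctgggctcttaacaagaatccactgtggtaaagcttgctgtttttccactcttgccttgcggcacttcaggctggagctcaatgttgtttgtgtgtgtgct
Peli1 (chr11:21091171-21091290, plus strand): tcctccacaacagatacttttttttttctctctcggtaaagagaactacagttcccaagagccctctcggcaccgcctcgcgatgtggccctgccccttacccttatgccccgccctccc
Tnip1 held overlapping matches that began at bases -58, -57 and -56 from the start. The one at -57 could be read on both strands, as could the match of Tnip3 at base -54. The first Tank window held its match at base -72, and Traf3 at base -10. Cyld, not shown, had its match at base -155. That of Bcl3, GGGAAGTCCC, lay just inside the transcript at base 2. A match describes the letters in the window and is not a measured binding site.

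**Figure D1:**
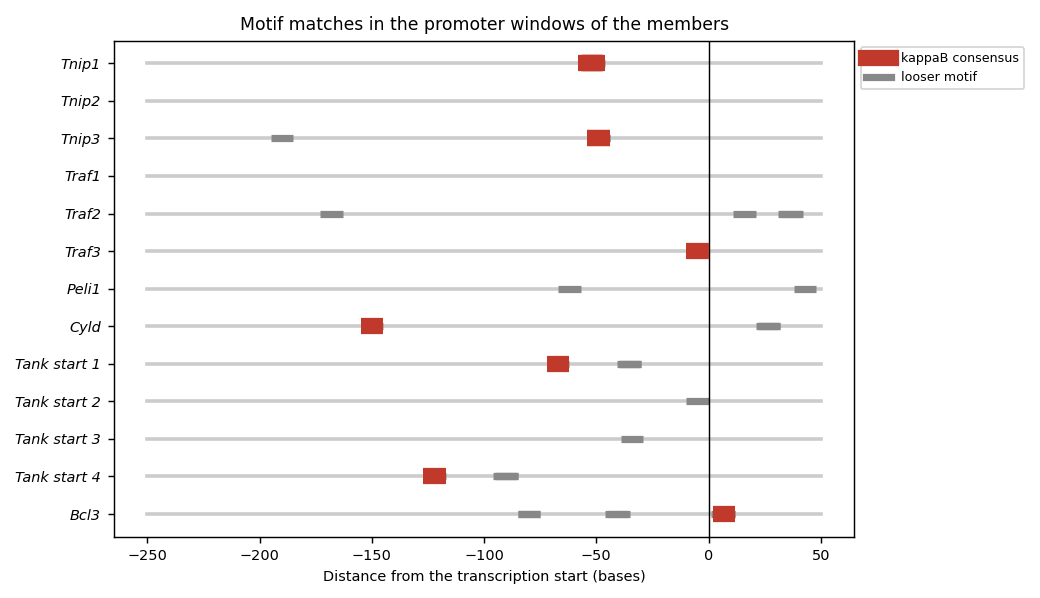
Position of motif matches in the promoter windows of the 10 members, as distance in bases from the RefSeq start (vertical line), with 4 starts for Tank. Red blocks are matches to the kappaB consensus, present in 6 members, grey blocks are matches to the looser motif alone, and Tnip2 and Traf1 have neither.

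Per length of transcript, the members covered a wide range, and their order differed between groups. Tnip1 had the highest mean level in CPM per kb in 3 of the groups, at 32.0 ± 0.83 (SD, n = 3) under LPS- tlr4f/f, 311 ± 56.0 under LPS- tlr4f/f-lysM-cre and 166 ± 2.99 under LPS+ tlr4f/f-lysM-cre. Under LPS+ tlr4f/f it was at 23.5 ± 1.52 CPM per kb, beside Tnip3 at 28.9 ± 3.40 and Tank at 23.5 ± 0.42. Traf1 had the lowest mean level of all members under LPS+ tlr4f/f, at 2.12 ± 0.39 CPM per kb, and was the third highest under LPS- tlr4f/f-lysM-cre, at 166 ± 79.9 CPM per kb. Cyld and Traf3 stayed between 5.34 and 9.38 CPM per kb in the mean of every group.

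**Figure D2:**
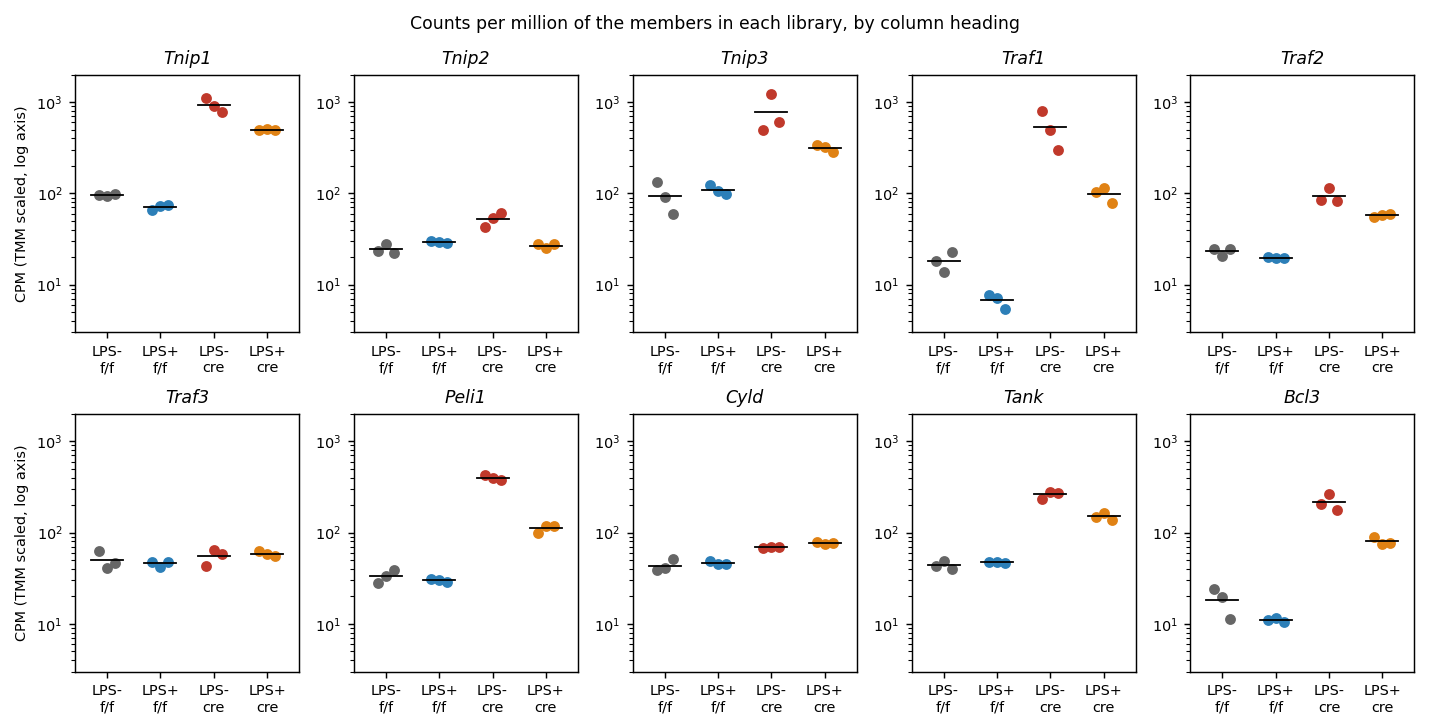
CPM of each member in each of the 12 libraries on a log axis (points), with the mean of each group of 3 (bars), by column heading (f/f, tlr4f/f; cre, tlr4f/f-lysM-cre). Under both tlr4f/f-lysM-cre headings 7 members lie well above both tlr4f/f headings, Tnip2 is highest under LPS- tlr4f/f-lysM-cre, and Cyld and Traf3 vary least.

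In the TNIP family, Tnip1 and Tnip3 differed between groups by larger factors than Tnip2. Tnip1 (chr11:54910785-54962917, minus strand, positions here and for the other members from GENCODE on GRCm38), which encodes ABIN1, a ubiquitin-binding partner of A20, was at 96.9, 93.0 and 97.6 CPM under LPS- tlr4f/f, at 65.1, 72.2 and 73.6 CPM under LPS+ tlr4f/f, at 1112, 905 and 779.9 CPM under LPS- tlr4f/f-lysM-cre and at 490.1, 507 and 493 CPM under LPS+ tlr4f/f-lysM-cre. The 4 groups did not overlap for Tnip1, and the 3 libraries of the last one lay closest together relative to their mean. Tnip3 (chr6:65525313-65634040, plus strand), which encodes the related ABIN3, was at 135, 90.5 and 58.7 CPM under LPS- tlr4f/f and at 123, 106 and 98.3 CPM under LPS+ tlr4f/f. Its levels were 492, 1224 and 601 CPM under LPS- tlr4f/f-lysM-cre and 339, 324 and 287 CPM under LPS+ tlr4f/f-lysM-cre. For Tnip3 both tlr4f/f headings overlapped, and replicate 2 under LPS- tlr4f/f-lysM-cre stood highest of the 12 libraries. Tnip2 (chr5:34496087-34513991, minus strand), the gene of ABIN2, which also stabilises the kinase TPL2, was at 23.5, 28.0 and 21.9 CPM under LPS- tlr4f/f, at 30.1, 29.0 and 28.7 CPM under LPS+ tlr4f/f, at 42.9, 53.3 and 60.2 CPM under LPS- tlr4f/f-lysM-cre and at 27.6, 25.1 and 27.5 CPM under LPS+ tlr4f/f-lysM-cre. The LPS- tlr4f/f-lysM-cre libraries were the highest for Tnip2. The other 9 lay between 21.9 and 30.1 CPM, among which those of LPS+ tlr4f/f were above the rest without overlap.

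Of the 3 TRAF genes, Traf1 changed most, Traf2 moderately and Traf3 little. Traf1 (chr2:34941750-34961772, minus strand), a TRAF without a RING domain that pairs with TRAF2, was at 18.3, 13.6 and 22.9 CPM under LPS- tlr4f/f and at 7.72, 7.17 and 5.36 CPM under LPS+ tlr4f/f. It was at 802, 489.9 and 297 CPM under LPS- tlr4f/f-lysM-cre and at 104, 113 and 78.5 CPM under LPS+ tlr4f/f-lysM-cre. No group of Traf1 overlapped another, although the replicates of LPS- tlr4f/f-lysM-cre differed widely among themselves (529 ± 255 CPM, SD, n = 3). Traf2 (chr2:25517982-25546940, minus strand), an adaptor of the TNF receptor that recruits the ligases cIAP1 and cIAP2, was at 24.3, 20.7 and 24.3 CPM under LPS- tlr4f/f, at 19.8, 19.4 and 19.7 CPM under LPS+ tlr4f/f, at 84.4, 114 and 81.8 CPM under LPS- tlr4f/f-lysM-cre and at 55.6, 58.4 and 59.8 CPM under LPS+ tlr4f/f-lysM-cre. Its groups did not overlap either. Traf3 (chr12:111166370-111267153, plus strand), which restrains the non-canonical branch of NF-kB and serves in the induction of type I interferon, was at 63.3, 40.9 and 46.1 CPM under LPS- tlr4f/f, at 47.3, 42.5 and 48.1 CPM under LPS+ tlr4f/f, at 42.7, 64.4 and 58.5 CPM under LPS- tlr4f/f-lysM-cre and at 62.3, 57.6 and 55.4 CPM under LPS+ tlr4f/f-lysM-cre. The only pair of its groups that did not overlap was that under both LPS+ headings.

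The ligase Peli1 and the deubiquitinase Cyld act in opposite directions on ubiquitin chains, and their levels also behaved differently. Peli1 (chr11:21091291-21150323, plus strand), which encodes the ligase pellino 1 of the TLR and IL-1 receptor route, was at 27.8, 33.8 and 39.4 CPM under LPS- tlr4f/f and at 30.7, 30.1 and 29.1 CPM under LPS+ tlr4f/f. It was at 428, 396 and 377 CPM under LPS- tlr4f/f-lysM-cre and at 99.5, 118 and 117 CPM under LPS+ tlr4f/f-lysM-cre. The groups under both tlr4f/f headings overlapped for Peli1, and those under both tlr4f/f-lysM-cre headings were far apart. Cyld (chr8:88697028-88751945, plus strand), which removes K63-linked and linear chains, was at 38.6, 41.1 and 51.2 CPM under LPS- tlr4f/f, at 48.6, 45.6 and 45.2 CPM under LPS+ tlr4f/f, at 67.7, 70.2 and 69.5 CPM under LPS- tlr4f/f-lysM-cre and at 78.2, 74.6 and 77.4 CPM under LPS+ tlr4f/f-lysM-cre. All 6 libraries headed tlr4f/f-lysM-cre were above all 6 headed tlr4f/f, by less than a factor of 2 in the means.

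Tank and Bcl3 followed the same order of groups as each other at the upper end. Tank (chr2:61578585-61654171, plus strand), the TRAF-binding scaffold, was at 42.7, 48.6 and 40.3 CPM under LPS- tlr4f/f, at 47.3, 48.2 and 46.5 CPM under LPS+ tlr4f/f, at 235, 282 and 272 CPM under LPS- tlr4f/f-lysM-cre and at 148, 165 and 137 CPM under LPS+ tlr4f/f-lysM-cre. Bcl3 (chr7:19808462-19822770, minus strand), the nuclear IkB, was at 24.4, 19.7 and 11.3 CPM under LPS- tlr4f/f and between 10.5 and 11.7 CPM under LPS+ tlr4f/f. The gene was at 208, 264 and 176 CPM under LPS- tlr4f/f-lysM-cre and at 89.2, 75.6 and 77.9 CPM under LPS+ tlr4f/f-lysM-cre. For both genes the tlr4f/f headings overlapped, and the highest group was LPS- tlr4f/f-lysM-cre.

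Differences were tested with edgeR's quasi-likelihood test and Benjamini-Hochberg adjustment over all genes tested, and genes were called differentially expressed (DEGs) by the thresholds of the study, a fold of more than 2 with an adjusted p under 0.01. All 10 members passed the filter on low counts in every comparison. In LPS- tlr4f/f-lysM-cre against LPS- tlr4f/f, 8 of 10 members were DEGs, all higher under tlr4f/f-lysM-cre, whereas 17.1% of the 14649 genes tested were DEGs in either direction, 9.26% higher and 7.81% lower. At an adjusted p under 0.05 with no limit on the fold, 9 members were higher, beside 37.3% of all genes in either direction. As headed this comparison is the effect of genotype without LPS, and with the headings exchanged it is the effect of LPS in tlr4f/f BMDMs. The largest log2 fold change was that of Traf1, 4.85 ± 0.45 (SE, adjusted p = 0.000914). Peli1 followed at 3.56 ± 0.19 (adjusted p = 0.000393), Bcl3 at 3.53 ± 0.34 (adjusted p = 0.000968) and Tnip1 at 3.27 ± 0.21 (adjusted p = 0.000454). Those of Tnip3, Tank, Traf2 and Tnip2 were 3.01, 2.58, 2.00 and 1.08. The median over the members was 2.79, beside -0.08 over all genes tested. Cyld was at 0.66 ± 0.15 with an adjusted p of 0.0150, and Traf3 at 0.13 ± 0.23, with a 95% interval from -0.42 to 0.68. Of these 8 calls, those of Tnip2 and Tnip3 were lost when some single libraries were left out, with log2 fold changes from 0.99 to 1.23 for Tnip2 and from 2.53 to 3.35 for Tnip3 over all 6 omissions, in which the 2500 DEGs over all genes fell to between 1039 and 1683. Tnip2 was no longer a DEG without any one of the 3 LPS- tlr4f/f libraries or without replicate 2 or 3 of LPS- tlr4f/f-lysM-cre (adjusted p up to 0.0227), nor Tnip3 without replicate 2 or 3 of LPS- tlr4f/f or replicate 3 of LPS- tlr4f/f-lysM-cre (adjusted p up to 0.0206). Of the 7 dendritic cell markers only 2 passed the filter, and both were DEGs, higher under LPS- tlr4f/f-lysM-cre. They had at most 14 counts in any LPS- tlr4f/f library and passed through the group where they were high. Their calls are therefore no separate support for a difference in these cells. Of the 7 fibroblast and stromal markers none was a DEG, though all 7 had positive values. The summed neutrophil markers (14.9 to 192 CPM against 0.637 to 13.7 CPM) and macrophage markers (10656 to 13716 CPM against 6466 to 7466 CPM) were also higher without overlap under LPS- tlr4f/f-lysM-cre, with no DEG in either list. The part of these cells in the result was not tested.

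The comparison of LPS+ tlr4f/f-lysM-cre with LPS+ tlr4f/f shared no library with the first one, and its libraries were the most uniform. As headed it gives the effect of genotype with LPS, and with the headings exchanged the effect of LPS in tlr4f/f-lysM-cre BMDMs. Here 7 of 10 members were DEGs, all higher under LPS+ tlr4f/f-lysM-cre, against 21.8% of 14551 genes in either direction, 10.8% higher and 10.9% lower. At an adjusted p under 0.05 alone 9 members were higher, beside 61.4% of all genes in either direction. The log2 fold changes were 3.88 ± 0.20 for Traf1 (adjusted p = 1.09e-05), 2.89 ± 0.077 for Bcl3 (adjusted p = 1.37e-11) and 2.83 ± 0.060 for Tnip1 (adjusted p = 2.81e-12). Those of Peli1, Tank, Traf2 and Tnip3 were 1.91, 1.68, 1.57 and 1.55, and the median over the members was 1.62, beside -0.02 over all genes. Cyld, at 0.73 ± 0.053 (adjusted p = 1.23e-07), and Traf3, at 0.36 ± 0.065 (adjusted p = 0.000435), were below the fold of 2. Tnip2 was at -0.12 ± 0.066, with an adjusted p of 0.131 and a 95% interval from -0.26 to 0.02. The 7 calls held without any single library. Markers of other cells also differed here. The summed dendritic cell markers were at 4.79 to 5.26 CPM against 0.416 to 1.09 CPM, and 2 of the 4 tested were DEGs, both higher. These 2 had at most 15 counts in any LPS+ tlr4f/f library and passed the filter through the group where they were high. Their calls are therefore no separate support. All 7 fibroblast and stromal markers had positive values, at summed levels of 45.4 to 57.6 CPM against 20.9 to 25.5 CPM, and Pdgfrb (log2 fold change 4.81) and Pdgfra (1.77) were DEGs. Of the 5 neutrophil markers tested Camp (3.31) and S100a8 (1.06) were higher and Mpo (-1.92) lower as DEGs, at overlapping sums of 5.57 to 7.62 CPM and 4.61 to 6.81 CPM. Of the 8 macrophage markers 2 were DEGs higher and 1 lower, and their sums were 7758 to 7960 CPM against 4603 to 4870 CPM. Pdgfrb, Pdgfra, Camp, S100a8 and Mpo were named after their values were seen. Pdgfra and Camp, with at most 18 and 8 counts under LPS+ tlr4f/f, also passed the filter through the group where they were high. The part of these cells in the result was not tested.

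**Figure D3:**
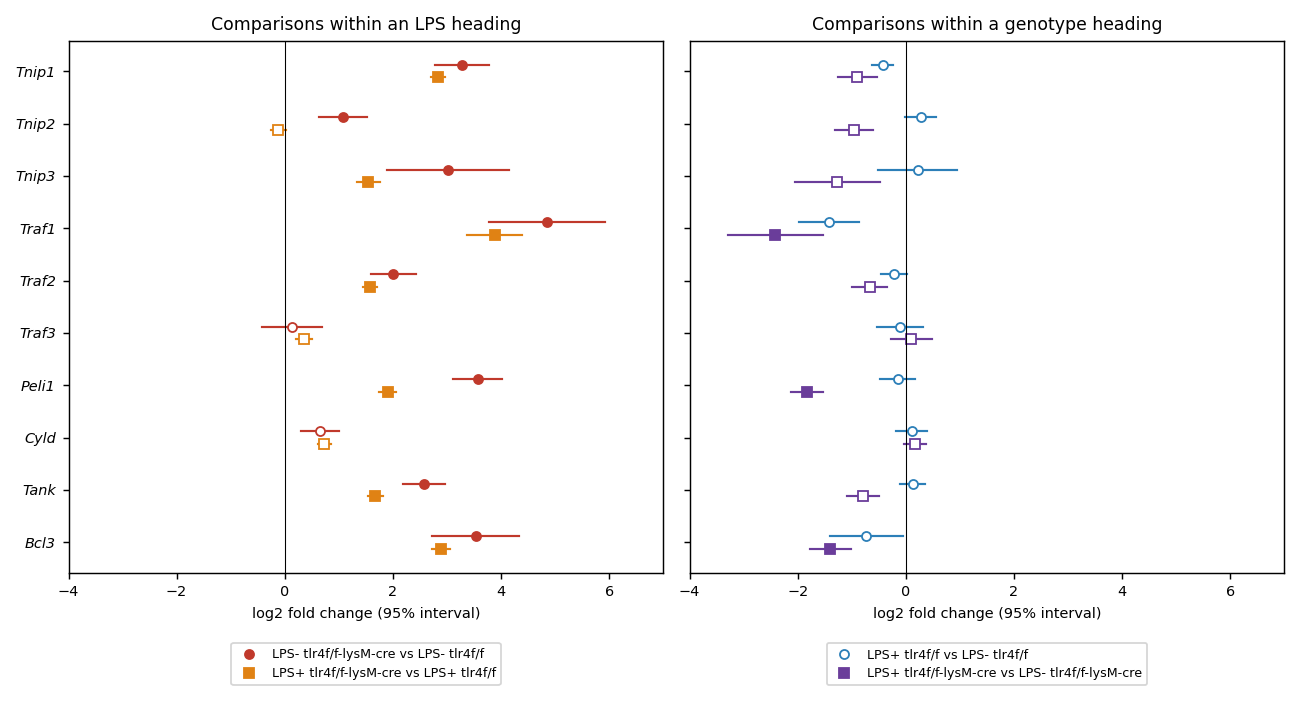
Log2 fold changes of the 10 members with 95% intervals in the 4 pairwise comparisons, by column heading, where filled symbols are DEGs. On the left the intervals of all members but Traf3 and Tnip2 lie to the right of 0 in both comparisons, and on the right 3 members are DEGs, all lower, in LPS+ tlr4f/f-lysM-cre against LPS- tlr4f/f-lysM-cre.

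Between the groups headed tlr4f/f-lysM-cre, levels were lower under LPS+ than under LPS-. This comparison is as headed the effect of LPS in tlr4f/f-lysM-cre BMDMs, and with the headings exchanged that of genotype with LPS, and it shares its libraries with both comparisons above. The DEGs were 3 of 10 members, all lower, against 6.09% of 14245 genes in either direction, 2.42% higher and 3.66% lower. At an adjusted p under 0.05 alone 8 members were lower, beside 26.7% of all genes in either direction. Traf1 had a log2 fold change of -2.41 ± 0.37 (adjusted p = 0.00645), Peli1 of -1.83 ± 0.12 (adjusted p = 0.000953) and Bcl3 of -1.40 ± 0.16 (adjusted p = 0.00275). Tnip2, Tnip1 and Tank were at -0.95, -0.90 and -0.79, with adjusted p-values below 0.01 but folds below 2. Tnip3 was at -1.26 ± 0.33 (adjusted p = 0.0313) and Traf2 at -0.67 ± 0.14 (adjusted p = 0.0152). Cyld, at 0.16 ± 0.087, and Traf3, at 0.10 ± 0.16, had adjusted p-values of 0.209 and 0.686. The median over the members was -0.92, beside 0.03 over all genes. None of the 10 members was a DEG without any one of the 3 LPS+ tlr4f/f-lysM-cre libraries, with adjusted p-values up to 0.0430 for Traf1, 0.0285 for Bcl3 and 0.0142 for Peli1. The loss ran through the whole table, where the 867 DEGs fell to between 4 and 15 in these 3 fits. Over all 6 omissions of a single library, the log2 fold change stayed between -2.71 and -2.00 for Traf1, between -1.55 and -1.24 for Bcl3 and between -1.89 and -1.75 for Peli1. Without replicate 1 or 3 of LPS- tlr4f/f-lysM-cre 4 members were DEGs. Traf1 was also lost without replicate 2 of LPS- tlr4f/f-lysM-cre, which left 2 DEGs (adjusted p = 0.0111). All 7 fibroblast and stromal markers were lower under LPS+ tlr4f/f-lysM-cre too, 3 of them as DEGs. The summed neutrophil markers (5.57 to 7.62 CPM against 14.9 to 192 CPM) and macrophage markers (7758 to 7960 CPM against 10656 to 13716 CPM) were lower without overlap as well. So were the summed dendritic cell markers (4.79 to 5.26 CPM against 6.04 to 9.80 CPM). None of these lists held a DEG. The part of these cells in the result was not tested.

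No member was a DEG in LPS+ tlr4f/f against LPS- tlr4f/f by edgeR, nor was any of the 14712 genes tested (0%). As headed this is the effect of LPS in tlr4f/f BMDMs, and with the headings exchanged that of genotype without LPS. At an adjusted p under 0.05 alone there were 0 members, beside 1.28% of all genes. Lyz2, at -10.09 ± 0.70 on the log2 scale (adjusted p = 0.0224), and Tlr4, at -2.02 ± 0.25 (adjusted p = 0.0402), were among these genes but not DEGs. At an unadjusted p under 0.05 there were 3 members and 3626 of all genes, and DESeq2 called 1 member, Traf1, and 467 of all genes. Traf1 was at -1.42 ± 0.23 on the log2 scale (adjusted p = 0.0510), Tnip1 at -0.43 ± 0.083 (adjusted p = 0.0592) and Bcl3 at -0.73 ± 0.28 (adjusted p = 0.180). The other 7 members lay between -0.22 and 0.27. In this fit the intervals of Peli1 (-0.47 to 0.17), Tank (-0.11 to 0.36) and Tnip3 (-0.51 to 0.94) lay within a change of 2-fold in either direction. Those of Traf1 (-1.98 to -0.86) and Bcl3 (-1.41 to -0.05) did not. The fit takes the same dispersion for both groups, although their biological coefficients of variation were 48.4% (LPS-) and 8.78% (LPS+). These intervals may therefore be too narrow. Tnip3 was at 94.6 ± 38.1 CPM under LPS- tlr4f/f and at 109 ± 12.8 CPM under LPS+ tlr4f/f (SD, n = 3). The summed macrophage markers were lower under LPS+ tlr4f/f without overlap (4603 to 4870 CPM against 6466 to 7466 CPM), and the other marker sums overlapped. Of the 7 fibroblast and stromal markers 5 had negative and 2 positive values. No marker was a DEG, and the part of these cells in the result was not tested.

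Whether the difference between genotypes depended on LPS was tested as an interaction over all 12 libraries. Its value is the log2 fold change of LPS+ tlr4f/f-lysM-cre against LPS+ tlr4f/f minus that of LPS- tlr4f/f-lysM-cre against LPS- tlr4f/f. Under both readings it is also the LPS response of tlr4f/f-lysM-cre BMDMs minus that of tlr4f/f BMDMs, and the value is the same. The DEGs of the interaction were 2 of 10 members, both negative, against 0.994% of 15792 genes in either direction, 0.589% positive and 0.405% negative. At an adjusted p under 0.05 alone there were 3 members, all negative, beside 6.99% of all genes in either direction. Peli1 had an interaction of -1.68 ± 0.18 (SE, adjusted p = 0.00170), a rise of 11.8-fold in the comparison of the LPS- headings and of 3.75-fold in that of the LPS+ headings. Tnip2 had an interaction of -1.22 ± 0.19 (adjusted p = 0.00640), with a rise of 2.12-fold in the first comparison and a log2 fold change of -0.12 in the second. Tank, at -0.92 ± 0.15, had an adjusted p of 0.00923 but a fold below 2. Tnip3 had the second most negative value, -1.49 ± 0.49, with an adjusted p of 0.0962 and an interval from -2.57 to -0.41. Traf1 was at -0.99 ± 0.46 (adjusted p = 0.227), Bcl3 at -0.67 ± 0.34 (adjusted p = 0.258), Tnip1 at -0.46 ± 0.18 (adjusted p = 0.153) and Traf2 at -0.46 ± 0.18 (adjusted p = 0.149). Traf3 and Cyld were at 0.21 ± 0.25 and 0.06 ± 0.15, and the value of Cyld changed sign with the size factors of DESeq2's method, called RLE (-0.014). The median over the members was -0.80, beside 0.05 over all genes. Tnip2 lost its call without any one of 9 of the 12 libraries, namely all 6 headed LPS+, replicates 1 and 3 of LPS- tlr4f/f and replicate 2 of LPS- tlr4f/f-lysM-cre (adjusted p up to 0.0274). Peli1 lost it without replicate 1 or 2 of LPS+ tlr4f/f or replicate 1 of LPS+ tlr4f/f-lysM-cre (adjusted p up to 0.0113), so that neither gene was called without any one of these 3 libraries. Without any one of the 6 LPS+ libraries the 157 DEGs of the interaction over all genes fell to between 10 and 21.

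**Figure D4:**
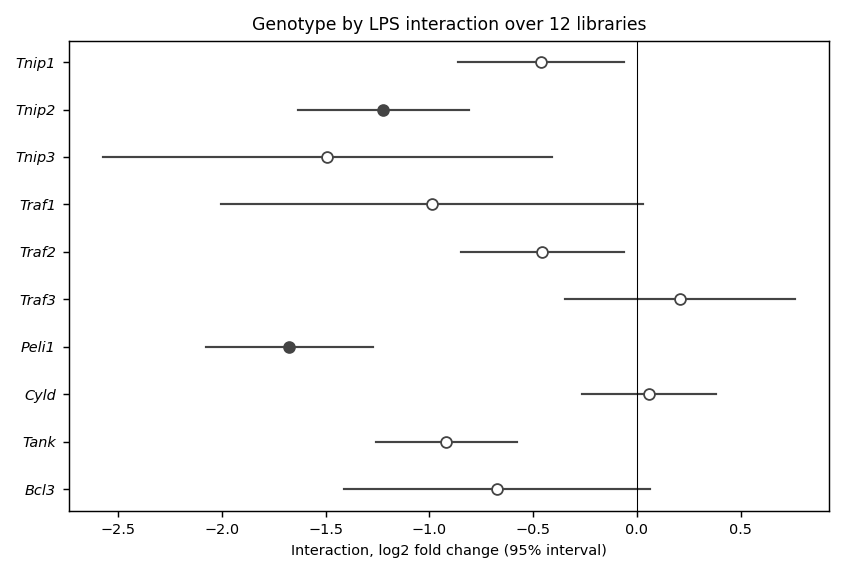
Interaction of genotype and LPS for the 10 members over 12 libraries, as log2 fold change with 95% interval, where filled points are DEGs. Peli1 (-1.68) and Tnip2 (-1.22) are filled, 8 members are below 0 and Traf3 and Cyld are slightly above.

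The other genes of the pathway were taken from 3 lists. They held 15 ubiquitin ligases and their partners, 8 deubiquitinases and ubiquitin-binding adaptors, and 11 genes of kinases activated through ubiquitin chains or of their partners, such as Tab1. In LPS- tlr4f/f-lysM-cre against LPS- tlr4f/f, 14 of these 34 genes were DEGs, 11 higher and 3 lower, with a median log2 fold change of 0.59. Over all genes tested 17.1% were DEGs in either direction, 9.26% higher and 7.81% lower. Among those higher were 4 of 15 ligases and partners, 3 of 8 deubiquitinases and adaptors and 4 of 11 kinases and partners. Tnfaip3, which encodes A20, the partner of the ABINs, had the largest rise, at 5.90 ± 0.61 (adjusted p = 0.00123). Birc3, the gene of the ligase cIAP2 that binds TRAF2, was at 3.62 ± 0.23 (adjusted p = 0.000454) and Ikbke, the gene of the TANK-binding kinase IKKe, at 2.79 ± 0.38 (adjusted p = 0.00274). Lower were Peli2, a relative of Peli1, at -3.37 ± 0.57 (adjusted p = 0.00571), Tab1, an adaptor of the kinase TAK1, at -1.67 ± 0.29 (adjusted p = 0.00599), and Map3k14, the gene of the kinase NIK that TRAF3 restrains, at -1.55 ± 0.26 (adjusted p = 0.00543). The count of 14 fell to between 7 and 9 without any one of these 6 libraries except replicate 3 of LPS- tlr4f/f, which left 11, and Peli2, Tab1 and Map3k14 were not DEGs without any one of the LPS- tlr4f/f-lysM-cre libraries (adjusted p up to 0.0277). Ikbke was lost without replicate 2 of LPS- tlr4f/f or replicate 2 or 3 of LPS- tlr4f/f-lysM-cre (adjusted p up to 0.0120), Tab1 also without replicate 1 or 2 of LPS- tlr4f/f (up to 0.0128) and Map3k14 also without replicate 1 or 3 of it (up to 0.0181). In LPS+ tlr4f/f-lysM-cre against LPS+ tlr4f/f, 11 of the 34 were DEGs, 9 higher and 2 lower. Over all genes tested 21.8% were DEGs there, 10.8% higher and 10.9% lower. Tnfaip3, Birc3 and Ikbke again had the largest rises, of 3.03 ± 0.066, 2.79 ± 0.070 and 2.60 ± 0.057. Peli2 was lower by -1.55 ± 0.095 and Traf4, a TRAF with low counts here (2 to 8 under LPS+ tlr4f/f-lysM-cre), by -3.06 ± 0.52 (adjusted p = 0.000260).

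In LPS+ tlr4f/f-lysM-cre against LPS- tlr4f/f-lysM-cre, 4 of the 34 were DEGs, against 6.09% of all genes tested. The level of Tnfaip3 was lower, at -2.12 ± 0.15 (adjusted p = 0.000962), as were Rnf31, a ligase of linear chains, at -1.28 ± 0.19 (adjusted p = 0.00643) and Birc3 at -1.05 ± 0.14 (adjusted p = 0.00464), and Traf5 was higher, at 1.58 ± 0.23 (adjusted p = 0.00546). None of these 4 was a DEG without any one of the LPS+ tlr4f/f-lysM-cre libraries. No gene of the 34 was a DEG between LPS+ tlr4f/f and LPS- tlr4f/f by edgeR or DESeq2. By edgeR 14 had an unadjusted p under 0.05, as had 3626 of the 14712 genes tested. In the interaction 1 of the 34 was a DEG, against 0.994% of all genes tested. This gene was Tax1bp1, an adaptor that links ubiquitin to A20, at -1.30 ± 0.19 (adjusted p = 0.00546). It was not called without any one of the 6 LPS+ libraries or replicate 1 of LPS- tlr4f/f (adjusted p up to 0.0262). Its CPM were 132, 166 and 135 under LPS- tlr4f/f, 179, 191 and 204 under LPS+ tlr4f/f, 369.9, 497 and 493 under LPS- tlr4f/f-lysM-cre and 244, 245 and 245 under LPS+ tlr4f/f-lysM-cre, a pattern in which, as for Tnip2, the difference under the LPS+ headings was small beside that under the LPS- headings.

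The comparisons under the LPS- headings and under the LPS+ headings share no library and can be set side by side over genes. Over the 10 members their log2 fold changes had a Pearson r of 0.913, with the same sign in 9 members, Tnip2 being the exception, and a smaller absolute value under the LPS+ headings in 8. Over the 34 other genes r was 0.754, with the same sign in 27 and a smaller absolute value in 27. Genes are not independent replicates, and these values describe the 2 comparisons only.

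**Figure D5:**
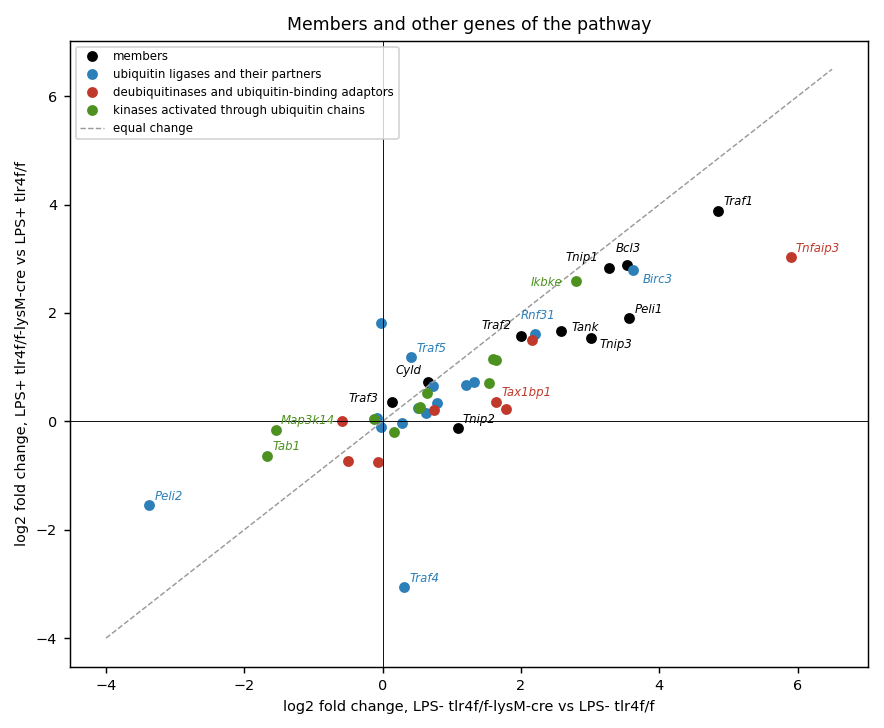
Log2 fold change of LPS- tlr4f/f-lysM-cre against LPS- tlr4f/f (x axis) and of LPS+ tlr4f/f-lysM-cre against LPS+ tlr4f/f (y axis) for the 10 members (black) and 34 other genes of the pathway (coloured by list), with a dashed line of equal change. Most genes to the right of 0 lie below the dashed line, Tnip2 lies near 0 on the y axis, and Traf4, at low counts, lies far below the other genes.

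Across the 12 libraries, the log2 CPM of the 8 members other than Traf3 and Tnip2 were correlated with one another, with Pearson's r between 0.775 (Tnip3 and Cyld) and 0.988 (Tnip1 and Traf2). Traf3 and Tnip2 had the lowest r of all pairs, 0.193. These values rest on 4 groups of 3 libraries that share their depth and scaling, and describe the pattern over groups more than any relation within one. Among 15792 genes, the gene with the pattern most like that of Tnip1 was Nfkbia, which encodes IkBa, the main cytoplasmic inhibitor of NF-kB (r = 0.996). For Bcl3 it was N4bp1 (r = 0.997), for Tank Sh3glb1 (r = 0.997), for Peli1 Whamm (r = 0.996), for Traf2 Rnf34 (r = 0.996) and for Traf1 Cd47 (r = 0.994). For Tnip3, Cyld and Tnip2 they were Birc6 (r = 0.984), Vhl (r = 0.983) and Cdk13 (r = 0.967), and for Traf3 the nearest gene, Elmsan1, reached 0.869.

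The choice of transcript mattered little for most members, since their transcripts share most reads. In Tnip1, with 11 transcripts, the log2 ratio of the mean of LPS- tlr4f/f-lysM-cre to that of LPS- tlr4f/f ran from 3.26 to 3.31, and in Peli1, with 2, from 3.56 to 3.57. The widest range was in Traf1, from 4.30 to 4.93 over 11 transcripts, and for LPS+ tlr4f/f-lysM-cre against LPS+ tlr4f/f from 3.37 to 3.92. In Tank, with 9 transcripts, the first ratio ran from 2.46 to 2.81.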

How the data were processed

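Total RNA of 12 BMDM samples was sequenced on an Illumina HiSeq 3000. The labels name an rRNA removal kit and also polyA RNA-seq. Per the labels the authors used Trimmomatic 0.36, FastQC, HISAT2, HTSeq and mm10, and the study tested with DESeq. The annotation version and strand setting are not given in the sources used here. The authors deposited whole-number counts per transcript, without normalization, for 115140 transcripts. Transcripts of a gene share reads, so 1 transcript per gene was used.

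Tests were run with edgeR 4.0.16 under R 4.3.3 (robust quasi-likelihood fit after filterByExpr and TMM), with 6 libraries in each of 4 pairwise comparisons and all 12 for the interaction. Each fit took the same dispersion of a gene for all its groups, although the spread differed between the LPS- and LPS+ headings. CPM per kb divides by transcript length. Log2 CPM for correlations used a prior count of 2. Gene positions are from GENCODE M21 and promoters from RefSeq, both of the mm10 build. The fits were tested on simulated data. Members, lists and tests were chosen with earlier results of these data known. Named genes were the 10 members, Tlr4, Lyz2 and Il1b, up to 3 DEGs with the largest fold per direction among the 34 other pathway genes, and the gene with the highest r to each member. Tax1bp1 and Traf4 follow from this rule. Alternatives were DESeq2 1.42.0, limma 3.58.1 (voom with quality weights), RLE factors, other filters, a single fit, a replicate block, an adjusted p below 0.05, sums over transcripts, single libraries left out and the exchange of headings. Same-numbered replicates correlated between -0.04 and 0.47 (over 0.1 in 5 of 18 pairs), and were not treated as pairs. Proteins were not analysed here.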

Additional observations from a re-analysis of the deposited data

Results flagged for a closer look

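The interaction over 12 libraries is the difference between the comparison of genotypes under the LPS+ headings and that under the LPS- headings. It passed an adjusted p of 0.01 (edgeR) for 3 members: Peli1 (-1.68), Tnip2 (-1.22) and Tank (-0.92, below a fold of 2), on the log2 scale. The other pathway genes were flagged only if they were DEGs, which left Tax1bp1 (-1.30). At an adjusted p under 0.05 alone there were 6 of these 34 genes, beside 6.99% of all genes. The values are the same with the headings exchanged, and under both readings they are also the LPS response of tlr4f/f-lysM-cre minus that of tlr4f/f BMDMs. In all 4 genes the highest 3 libraries were those headed LPS- tlr4f/f-lysM-cre. The same held for Tnip1, Tnip3, Traf1, Traf2 and Bcl3, which did not pass, so this order does not set the 4 genes apart. No cause was tested.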

How the results depend on the processing

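With LPS- tlr4f/f-lysM-cre exchanged for LPS+ tlr4f/f, the members called became 0 of 10 for LPS- tlr4f/f-lysM-cre vs LPS- tlr4f/f, 8 for LPS+ tlr4f/f vs LPS- tlr4f/f, 7 for LPS+ tlr4f/f-lysM-cre vs LPS- tlr4f/f-lysM-cre and 3 for LPS+ tlr4f/f-lysM-cre vs LPS+ tlr4f/f, and the pathway genes called became 0, 14, 11 and 4. The log2 fold changes that changed sign by exchange became, in LPS- tlr4f/f-lysM-cre vs LPS- tlr4f/f, -0.43 for Tnip1, -1.42 for Traf1, -0.22 for Traf2, -0.11 for Traf3, -0.15 for Peli1, -0.73 for Bcl3, -0.19 for Birc3 and -0.51 for Ikbke. In LPS+ tlr4f/f vs LPS- tlr4f/f they became 3.27 for Tnip1, 4.85 for Traf1, 2.00 for Traf2, 0.13 for Traf3, 3.56 for Peli1 and 3.53 for Bcl3. In LPS+ tlr4f/f-lysM-cre vs LPS- tlr4f/f-lysM-cre they became 2.83 for Tnip1, 1.55 for Tnip3, 3.88 for Traf1, 1.57 for Traf2, 1.91 for Peli1, 1.68 for Tank, 2.89 for Bcl3, 3.03 for Tnfaip3, 1.62 for Rnf31 and 2.79 for Birc3. In LPS+ tlr4f/f-lysM-cre vs LPS+ tlr4f/f they became -0.90 for Tnip1, -1.26 for Tnip3, -2.41 for Traf1, -0.67 for Traf2, -1.83 for Peli1, -0.79 for Tank, -1.40 for Bcl3, -2.12 for Tnfaip3, -1.05 for Birc3, -0.73 for Ikbke and 1.41 for Peli2. These shifts follow from the exchange itself, which swaps the names of the comparisons.

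DESeq2 gave 1 member for LPS+ tlr4f/f vs LPS- tlr4f/f, 8 pathway genes for LPS+ tlr4f/f-lysM-cre vs LPS- tlr4f/f-lysM-cre and 4 in the interaction, and an adjusted p below 0.05 gave 7 and 3 of these. At least 10 counts in every library gave 2 pathway genes in the interaction, as did voom. Sums over transcripts gave 1 member in the interaction. The replicate block gave 1 member in the interaction and 1 pathway gene in LPS+ tlr4f/f-lysM-cre vs LPS- tlr4f/f-lysM-cre. It removed Tnip2 (adjusted p = 0.0140) and Tnip3 (adjusted p = 0.0107) in LPS- tlr4f/f-lysM-cre vs LPS- tlr4f/f. It also removed Bcl3 (adjusted p = 0.0128) in LPS+ tlr4f/f-lysM-cre vs LPS- tlr4f/f-lysM-cre. Whether equal numbers pair the samples is not given in the sources used here. With 1 library left out, which leaves a group of 2, members called ranged from 6 to 8 in LPS- tlr4f/f-lysM-cre vs LPS- tlr4f/f, from 0 to 4 in LPS+ tlr4f/f-lysM-cre vs LPS- tlr4f/f-lysM-cre and from 0 to 2 in the interaction, and stayed at 7 in LPS+ tlr4f/f-lysM-cre vs LPS+ tlr4f/f. Pathway genes called ranged from 7 to 11, from 0 to 4 and from 0 to 3, and stayed at 11. Small values changed sign: with 1 library left out Tnip3 ranged from -0.032 to 0.57 in LPS+ tlr4f/f vs LPS- tlr4f/f, Traf3 from -0.23 to 0.10 there and from -0.078 to 0.21 in LPS+ tlr4f/f-lysM-cre vs LPS- tlr4f/f-lysM-cre, and Cyld from -0.049 to 0.16 in the interaction, where it was at -0.015 with DESeq2, -0.014 with RLE factors and -0.027 with voom. The cause was not tested. Over all genes, the 2500 DEGs of LPS- tlr4f/f-lysM-cre vs LPS- tlr4f/f became 3996 with DESeq2, 4064 at an adjusted p below 0.05, 4258 in a single fit of 12 libraries and 1039 to 1683 with 1 library left out. The 0 of LPS+ tlr4f/f vs LPS- tlr4f/f became 467, 92 and 75 in the same 3 settings, 26 with voom, 34 without a filter and up to 182 (without LPS- tlr4f/f replicate 3). The 867 of LPS+ tlr4f/f-lysM-cre vs LPS- tlr4f/f-lysM-cre became 2006 with DESeq2, 1985 at an adjusted p below 0.05, 212 with the replicate block and 4 to 1180 with 1 library left out. The 3165 of LPS+ tlr4f/f-lysM-cre vs LPS+ tlr4f/f became 2053 in a single fit, and the 157 of the interaction (93 positive) became 657 with DESeq2, 623 at an adjusted p below 0.05, 144 (64 positive) with RLE factors and 10 to 306 with 1 library left out. The wide spread under the LPS- headings limits what 3 libraries can show.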
